A study of Arabidopsis thaliana with 2 samples.

Results

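Restorer-of-fertility-like (RFL) genes form a clade of pentatricopeptide repeat (PPR) genes, and 30 RFL genes of Arabidopsis thaliana were looked up by gene identifier in a table of 6791 genes measured by RNA sequencing in ago1-27 and wild-type plants. Of the 30 genes, 17 (56.7%) were in the table and 13 were not, against 23.7% of protein-coding genes and 19.9% of other PPR genes in it. The ago1-27 plants carry a weak allele of ARGONAUTE1 (AGO1), and wild-type plants were their control. Both grew in soil under long days (16 h light and 8 h dark, 20 °C), and total RNA came from tissue labelled as flower buds. Each genotype was 1 sample said to hold 3 biological replicates. The table gave 1 RPKM value per gene and genotype (reads scaled by transcript length and by library total), so no difference below has an SD, a replicate check or a p-value.

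PPR proteins bind RNA in mitochondria and chloroplasts, with each repeat contacting a base of the transcript. The RFL clade takes its name from the restorer-of-fertility genes of crops, whose proteins act on mitochondrial transcripts that cause male sterility. In Arabidopsis several RFL proteins are RNA processing factors that set the 5′ ends of mitochondrial mRNAs. AGO1 carries miRNAs and trans-acting siRNAs (ta-siRNAs) to transcripts with matching sequence. RFL transcripts are a known target group of miR161 and miR400, and of ta-siRNAs cut in steps from the TAS2 transcript after miR173 has cleaved it.

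The small RNAs are shown first because the RFL genes are grouped below by which of them they match. Sequences are from the TAIR10.1 genome with the RefSeq annotation, 5′ to 3′, with bases 2 to 8 (the seed) in capitals. miR161.1 and miR161.2 come from 1 hairpin at overlapping positions, chr1:17825731-17825751 and chr1:17825722-17825742, and miR400 from chr1:11785947-11785967, all on the plus strand. The 3 TAS2 sequences shown are 21-nt steps of the strand opposite to TAS2, counted from the miR173 cut (site at chr2:16539991-16540012).
miR161.1: uGAAAGUGacuacaucggggu
miR161.2: uCAAUGCAuugaaagugacua
miR400: uAUGAGAGuauuauaagucac
TAS2 D6(-): aUAUCCCAuuucuaccaucug
TAS2 D9(-): uCUACCAUccgaucaacaaga
TAS2 D12(-): uCAAGAUCcaucuuacucuuu
The 3 miRNAs have 3 different seeds, and so do the 3 TAS2 steps.

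Matches were scored without gaps by a penalty of 1 for a mismatch and 0.5 for a G:U pair, doubled at small RNA bases 2 to 13, and a penalty of at most 4 counted as a match. A match describes letters and is not a measured cleavage site. By this rule 23 of the 30 RFL transcripts (76.7%) matched miR161 or miR400, against 5 of 246 other PPR genes (2.03%) and 10 of 27533 protein-coding genes outside the clade (0.0363%). A TAS2 step matched 21 RFL transcripts (70.0%), 2 other PPR genes (0.813%) and 162 protein-coding genes (0.588%). The TAS2 search covered 58 small RNAs of both strands, far more than the miRNA search, so its shares are not comparable with those of the miRNAs. Of the 17 RFL genes in the table, 14 matched miR161 or miR400, 12 matched a TAS2 step and each of the 17 matched at least 1 of them. Of the 13 that were not in the table, 11 did, and AT1G63320 and AT4G26800 matched none. Most RFL genes outside the table thus carried a match as well.

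The closest match of each of 7 RFL genes in the table is printed below to show how the complementary stretches differ. Capitals are bases that pair with the small RNA in Watson-Crick fashion and lower case marks G:U pairs and mismatches.
AT1G06580, miR400, chr1:2014950-2014970: GTGACTTATAATACTCTCATA
AT1G62590, miR161.2, chr1:23178190-23178210: TAGTCACgTTCAATGCATTGA
AT5G41170, miR161.2, chr5:16479684-16479704: TAaTCACTTTCAATGCATTGA
AT1G63150, miR161.2, chr1:23420381-23420401: TtGTtACTTTCAATGCATTGA
AT1G63400, miR161.2, chr1:23508308-23508328: TAGTCACTTTCAAcGCATTGA
AT1G63130, TAS2 D6(-), chr1:23413379-23413399: CAGATGGTgGAAATGGGATAT
AT1G62860, TAS2 D9(-), chr1:23276365-23276385: TCTTGTTGATCGGATGGTAGA
The first and the last are paired at all 21 bases. AT1G62860 is annotated as a transcribed pseudogene, so its site lies in an exon without coding sequence. The other 6 sites lie in coding sequence.

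For 3 pairs of small RNAs, most transcripts with both sites had them at the same distance. In 13 of the 14 RFL transcripts that matched both, the miR400 site began 212 nt after the miR161.2 site, and in the remaining 1 it began 110 nt after. The miR161.2 site began 9 nt after the miR161.1 site in 11 of 13 transcripts, the same 9 nt by which the starts of the 2 mature miRNAs are offset in their hairpin. The TAS2 D6(-) site began 451 nt before the miR161.2 site in 9 of 10 transcripts. The 2 transcripts with both a miR161.2 and a TAS2 D12(-) site had them 490 and 616 nt apart.

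**Figure D1:**
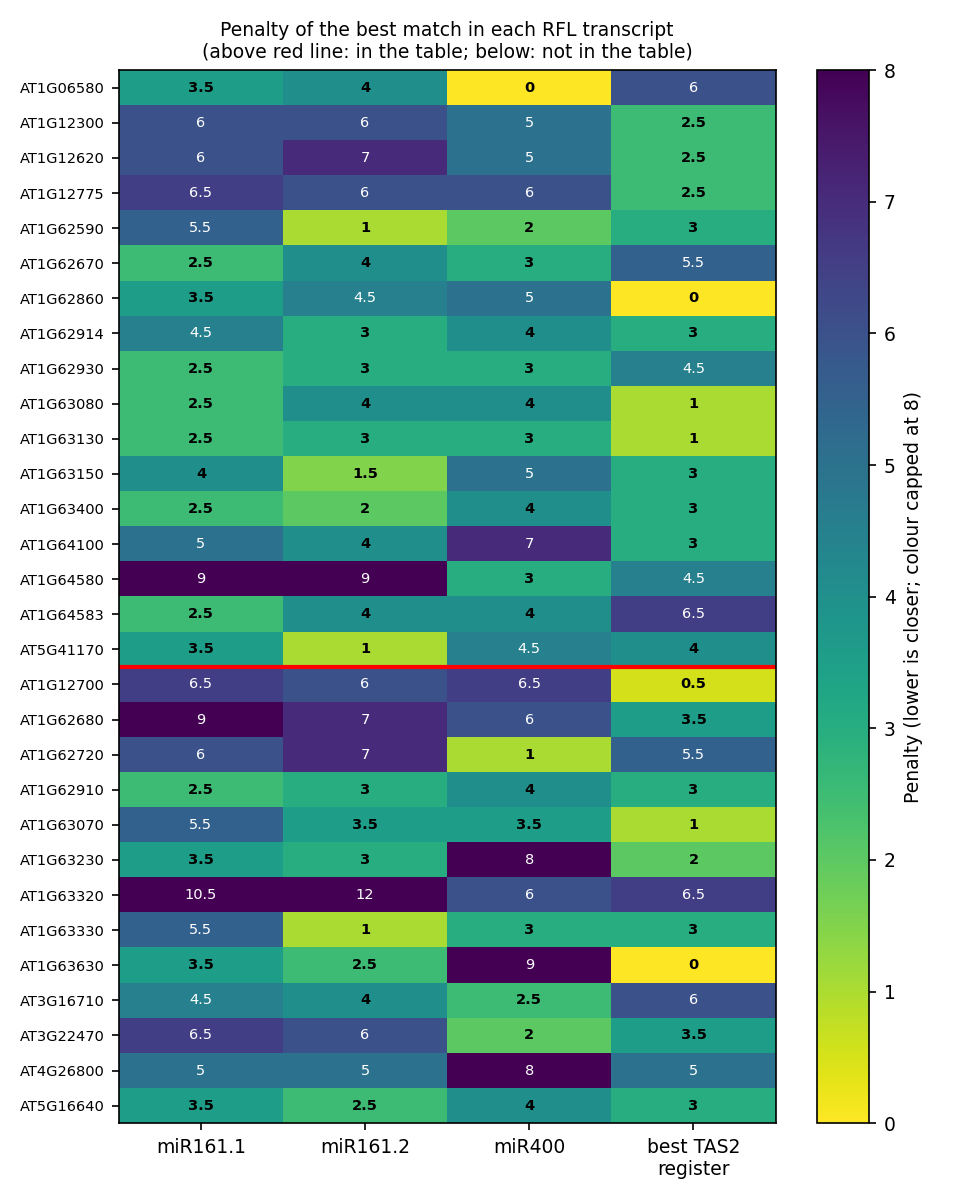
Penalty of the best match of miR161.1, miR161.2, miR400 and any TAS2 step (columns) in the transcripts of 30 RFL genes (rows), with 0 for a fully paired site. Bold values of at most 4 count as matches. The 17 genes above the red line were in the table and the 13 below it were not, and matches are found on both sides of the line.

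The RFL genes in the table were all higher in ago1-27, and all at low levels. The 17 genes ranged from 0.961 to 5.94 RPKM in ago1-27, with a median of 2.42, and from 0.138 to 3.79 RPKM in wild type, with a median of 1.17. The medians of all rows were 9.29 RPKM in ago1-27 and 7.11 RPKM in wild type. The ratio of ago1-27 to wild type ran from 1.57 to 7.27, with a median of 2.20. The table holds 1 row with a ratio between 1/1.5 and 1.5, and its lowest ratio above 1 is 1.5001, so its median ratio of 1.62 is that of selected rows and not a level of no change. Dividing every ratio by 1.62 turns each row between 1.5001 and 1.62 below 1 by construction, AT1G63130 with its 1.57 among them, and leaves the other 16 RFL genes above 1. Of all rows, 69.4% had a ratio above 1, and 45 of the 49 other PPR genes did (91.8%). A ratio above 1 was therefore common in the PPR genes outside the clade too.

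The threshold for the whole table was a change of 1 or more, up or down, in log2(RPKM + 1), for genes that reached 1 RPKM in a genotype. By it 0 of 16 RFL genes were higher and 0 lower, against 11.3% of all rows higher and 10.5% lower. None of 48 other PPR genes (0%) passed upwards either. On this scale the median change of the 16 RFL genes was 0.681, close to 0.624 for all rows and 0.631 for other PPR genes. The added pseudocount of 1 is close to the median wild-type value of the RFL genes, and it compresses their differences. Without it, 10 of the 16 genes (62.5%) had a ratio of at least 2, against 21.6% of all rows and 29.2% of other PPR genes. Among these 10, AT1G12300, AT1G62590, AT1G63080, AT1G63150, AT1G63400 and AT1G64583 were below 1 RPKM in wild type. They passed the filter on their higher value alone, which favours a high ratio, so the 62.5% leans on how genes were admitted. Shares among genes of at least 1 RPKM in wild type were not computed for all rows or other PPR genes. Rows whose mean level lay between those of the lowest and the highest RFL gene, 0.572 to 4.87 RPKM, reached a ratio of at least 2 in 41.0% of 1992 cases, against 11 of the 17 RFL genes (64.7%). Their median ratio was 1.82.

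**Figure D2:**
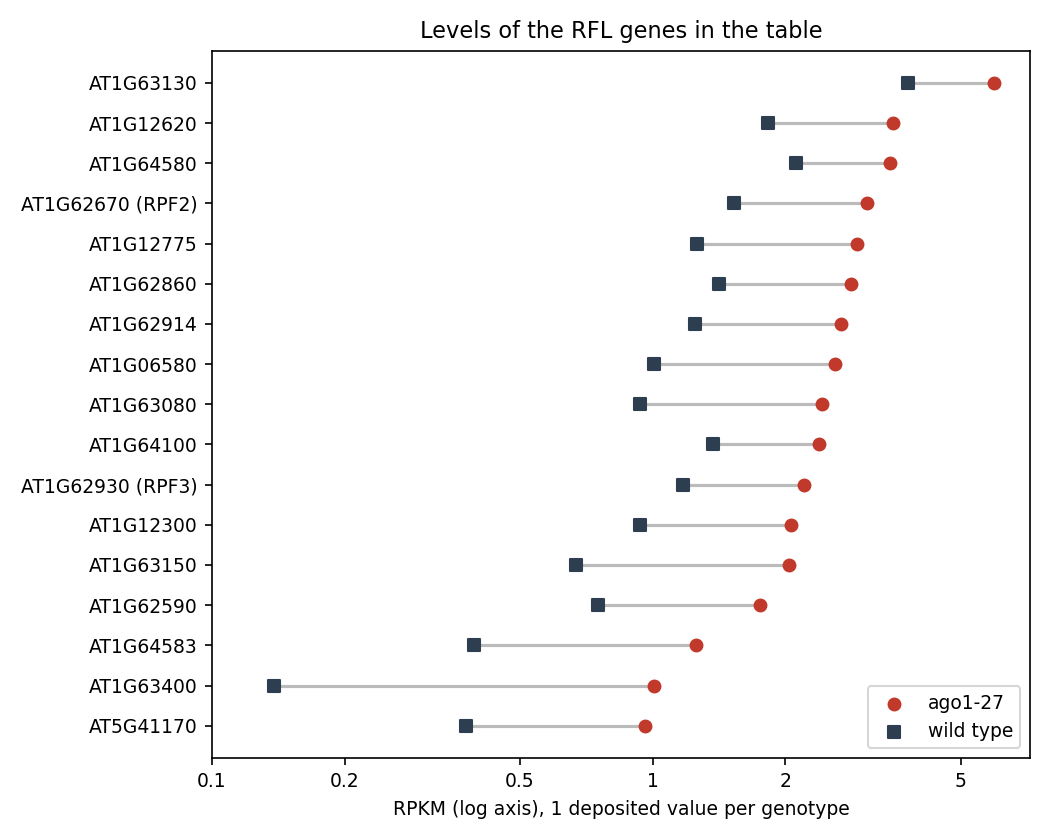
RPKM of 17 RFL genes in ago1-27 (red circles) and wild type (dark squares) on a log axis, 1 deposited value per genotype, ordered by the ago1-27 value. Each ago1-27 value lies to the right of the wild-type value, and wild-type values run from 0.138 to 3.79 RPKM.

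**Figure D3:**
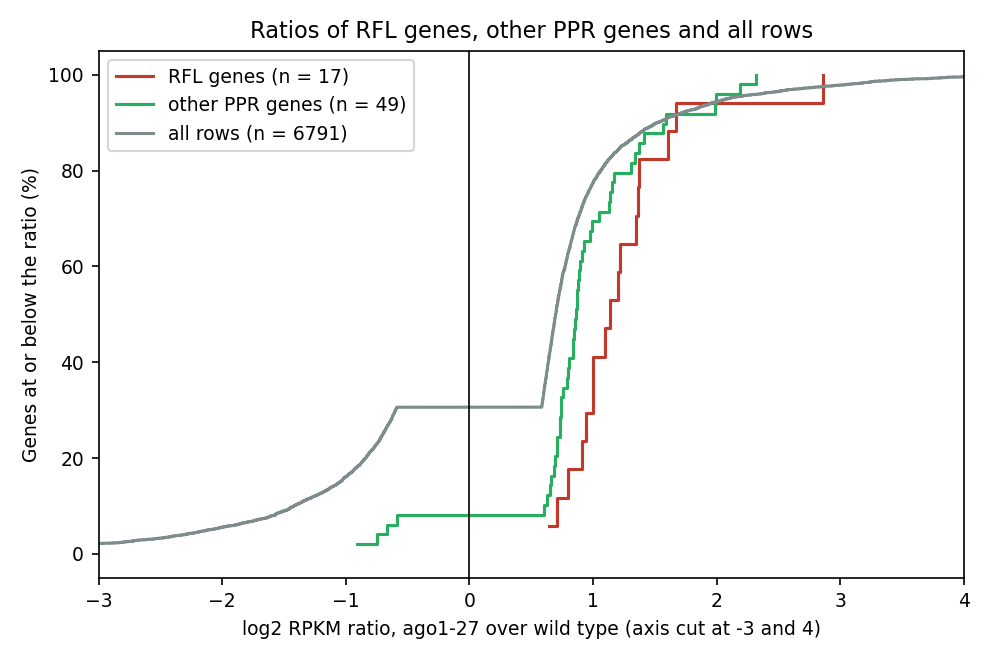
Cumulative share of genes by log2 ratio of RPKM, ago1-27 over wild type, for 17 RFL genes, 49 other PPR genes and all 6791 rows. The flat stretch around 0 is where the table holds almost no rows. The RFL curve lies right of the other PPR genes over most of its range, with medians of 2.20 and 1.82 as ratios.

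Few reads per library stood behind each value. From the steps of low RPKM values the library totals were read as 11407616, 12164864 and 12294210 reads for ago1-27 and 10453032, 11196495 and 13887069 reads for wild type. At an average library, an RFL gene had about 24 to 187 reads in ago1-27 and about 4 to 119 reads in wild type. Intervals below are exact 95% intervals on the ratio of such reads and cover counting error only. They show the precision of each ratio at 1 average library, and a value that rests on more libraries has more reads behind it. Since the table leaves out ratios near 1, an interval above 1 is favoured for any row in it. Summed over the 17 genes, about 1237 reads in ago1-27 and 598 in wild type gave a ratio of 2.05. No interval is given for this sum, because a read that fits several RFL genes may be counted more than once.

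For 3 RFL genes the values could be traced to single libraries, as whole reads at 1 length found by the search. That length was 2052 nt for AT1G06580 and 2342 nt for AT1G62860, against longest annotated transcripts of 2278 and 2588 nt. For AT5G41170 both were 2099 nt. AT1G06580, a PPR gene with the fully paired miR400 site, had 69 and 61 reads in 2 ago1-27 libraries (2.76 and 2.42 RPKM), against 19 and 26 reads in 2 wild-type libraries (0.886 and 1.13 RPKM). Both ago1-27 libraries lay above both wild-type libraries. AT1G62860, the pseudogene, had 83 and 72 reads in 2 ago1-27 libraries (3.11 and 2.53 RPKM), against 52 and 30 reads in 2 wild-type libraries (1.60 and 1.23 RPKM). Those values did not overlap either. How many of all rows separate in this way was not computed. The table leaves out ratios near 1, which favours such separation in any row. AT5G41170 had 23 reads in 1 ago1-27 library (0.961 RPKM), against 11 reads in 1 wild-type library (0.377 RPKM). These values leave out the third library, or the other two for AT5G41170, and the sources used here do not state the rule. The other 14 genes could not be traced to 1 or 2 libraries.

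The RFL genes named as RNA processing factors had ratios in the lower part of the range. RPF2 (AT1G62670, chr1:23204256-23206822), needed for the 5′ ends of the mitochondrial nad9 and cox3 mRNAs, was at 3.07 RPKM in ago1-27, against 1.53 RPKM in wild type, a ratio of 2.003 (1.38 to 2.95). RPF3 (AT1G62930, chr1:23306534-23308686), which acts on the 5′ ends of several mitochondrial mRNAs, was at 2.20 RPKM in ago1-27, against 1.17 RPKM in wild type, a ratio of 1.88 (1.19 to 3.03). AT1G63130 (RPF6 among its synonyms, chr1:23412518-23415155) had the highest level of the 17 genes in both genotypes, at 5.94 RPKM in ago1-27, against 3.79 RPKM in wild type, and the lowest ratio among them, 1.57 (1.24 to 1.99). The reference annotation lists this gene as a source of secondary siRNAs, 1 of which is noted to target RPF3, and as a target of a TAS2 ta-siRNA. RPF1 (AT1G12700) was not in the table. RPF2, RPF3 and AT1G63130 each matched both miR161 forms and miR400.

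The 3 highest ratios belonged to genes with about 4 to 18 reads in an average wild-type library. AT1G63400 (chr1:23507178-23509484) was at 1.01 RPKM in ago1-27, against 0.138 RPKM in wild type, a ratio of 7.27 (2.48 to 29.9). The wide interval follows from the wild-type value, which stands for about 4 reads in an average library. It matched miR161.2 at a penalty of 2 and miR161.1 at 2.5. AT1G64583 (chr1:23986890-23988812) was at 1.25 RPKM in ago1-27, against 0.393 RPKM in wild type, a ratio of 3.19 (1.44 to 7.84). AT1G63150 (chr1:23419294-23421714), noted in the annotation as giving rise to siRNAs, was at 2.04 RPKM in ago1-27, against 0.671 RPKM in wild type, a ratio of 3.05 (1.77 to 5.50). The 3 intervals overlap one another, so their order is not resolved at the depth of an average library.

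Next in order came RFL genes with ratios near 2.5. AT1G63080 (chr1:23387574-23390838), another gene noted as a ta-siRNA source and a TAS2 target, was at 2.42 RPKM in ago1-27, against 0.935 RPKM in wild type, a ratio of 2.59 (1.74 to 3.93). It carried a TAS2 D6(-) match at a penalty of 1, as did AT1G63130 with the lowest ratio. AT1G06580 (chr1:2013996-2016273) had a ratio of 2.57 (1.63 to 4.16) and AT5G41170 (chr5:16478486-16480584) of 2.55 (1.16 to 6.11). AT1G62590 (chr1:23176930-23179248), annotated as a PPR protein with adenylate cyclase activity, was at 1.75 RPKM in ago1-27, against 0.753 RPKM in wild type, a ratio of 2.33 (1.35 to 4.17).

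The remaining genes with a miR161 or miR400 match had ratios from 1.63 to 2.14. AT1G62914 was at 2.68 RPKM in ago1-27, against 1.25 RPKM in wild type, a ratio of 2.14 (1.34 to 3.51). The pseudogene AT1G62860 stood at 2.82 RPKM in ago1-27, against 1.41 RPKM in wild type, a ratio of 1.99 (1.37 to 2.94). Both lay close to the clade's median ratio, and AT1G64100 and AT1G64580 below it. AT1G64100 was at 2.38 RPKM in ago1-27, against 1.37 RPKM in wild type, a ratio of 1.74 (1.17 to 2.61). AT1G64580 stood at 3.45 RPKM in ago1-27, against 2.12 RPKM in wild type, a ratio of 1.63 (1.13 to 2.38). Of these genes, AT1G62860, AT1G64100 and AT1G64580 are nearly free of shared 50-nt stretches.

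The 3 RFL genes in the table without a miR161 or miR400 match lie in 1 stretch, chr1:4183010-4355929, and each carries the same TAS2 D12(-) match at a penalty of 2.5, shown here for AT1G12300 at chr1:4184557-4184577 with pairing in capitals.
AT1G12300, TAS2 D12(-): gAAGAGTAAGATGGAgCTTGA
AT1G12775 was at 2.91 RPKM in ago1-27, against 1.26 RPKM in wild type, a ratio of 2.31 (1.497 to 3.63). AT1G12300 was at 2.06 RPKM in ago1-27, against 0.938 RPKM in wild type, a ratio of 2.20 (1.47 to 3.36). AT1G12620 was at 3.52 RPKM in ago1-27, against 1.82 RPKM in wild type, a ratio of 1.93 (1.38 to 2.72). Their median ratio of 2.20 lay beside 2.24 for the 14 genes with a miR161 or miR400 match. The 12 genes with a TAS2 match had a median ratio of 2.25 and the 5 without one 2.003. The order of these medians depended on the penalty allowed. At a penalty of at most 3 the medians were 2.20 with a TAS2 match and 2.27 without, and at most 5 they were 2.17 with and 2.57 without. For miR161 or miR400 they were 2.44 with and 1.99 without at a penalty of at most 3, and 2.17 with and 2.31 without at most 5. These groups were defined after earlier results of these data were known, and with 3 to 14 genes that share sequence the medians are a description.

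**Figure D4:**
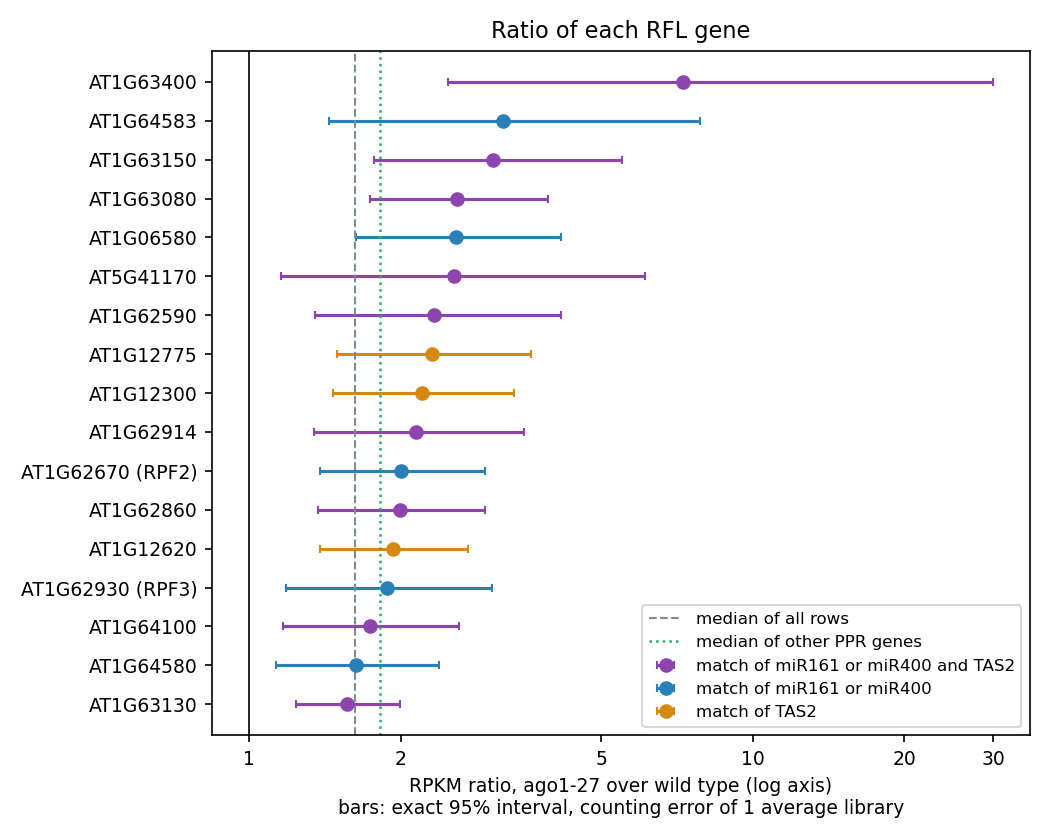
Ratio of RPKM, ago1-27 over wild type, of 17 RFL genes on a log axis, with exact 95% intervals for counting error in 1 average library, coloured by the small RNAs matched. Lines mark 1, the median of all rows (1.62) and the median of other PPR genes (1.82). The lower bound lies above 1 for all 17 genes and above the median of all rows for only 4. Such shares were not computed for all rows. The 3 genes that match TAS2 alone (orange) lie between 1.93 and 2.31, inside the range of the others.

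Outside the clade, 10 protein-coding genes matched miR161 or miR400, and 5 of them were in the table, each higher in ago1-27. A ratio above 1 was found in 69.4% of all rows and in 91.8% of other PPR genes. The PPR gene AT5G46680 was at 1.74 RPKM in ago1-27, against 0.437 RPKM in wild type, a ratio of 3.98. The PPR genes AT1G22960, AT5G65560 and AT2G06000 had ratios of 1.89, 1.82 and 1.74. AT4G19440, whose product is named as a tetratricopeptide repeat protein, had a ratio of 1.58. A ratio of 1.58 is close to the lowest that the table holds above 1. Of the other PPR genes with a TAS2 match, 1 was in the table, and it was not higher in ago1-27.

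Some RFL genes are close copies, and reads of 50 nt cannot always tell those apart. Coding sequences of the 29 RFL genes that have one were 59.4% to 99.0% identical in 396 pairs that aligned over at least 500 bases, with a median of 69.7%. The 99.0% pair is AT1G62590, in the table, and AT1G63330, which was not. The share of 50-nt windows found nowhere else in the genome ran from 31.1% (AT1G62590) to 100% among the 17 genes. It was at least 90% in 9 genes. Allowing up to 2 mismatches left 6 such genes. AT1G63400, with the highest ratio, had 46.9% unique windows, and 36.6% of its windows were shared with AT1G62590.

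The ratio was as high in the RFL genes that reads can tell apart. The 9 genes with at least 90% unique windows had ratios of 1.63 to 3.19 with a median of 2.20, and the other 8 had ratios of 1.57 to 7.27 with a median of 2.24. With 2 mismatches allowed, the 6 unique genes (AT1G06580, AT1G62860, AT1G64100, AT1G64580, AT1G64583 and AT5G41170) had a median of 2.27 and the other 11 a median of 2.20. How the authors placed reads that map to several copies is not stated in the sources used here, so the split of reads within the stretch chr1:23176930-23988812, which holds 20 of the 30 RFL genes and 12 of the 17 in the table, is uncertain. The libraries do not keep strand, and 4 of the 17 genes overlap an annotated gene on the opposite strand (AT1G12775, AT1G62590, AT1G63130 and AT1G64580). The 13 without such a neighbour had a median ratio of 2.20. AT1G64100 overlaps NAC027 on its own strand, so its reads are uncertain too.

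**Figure D5:**
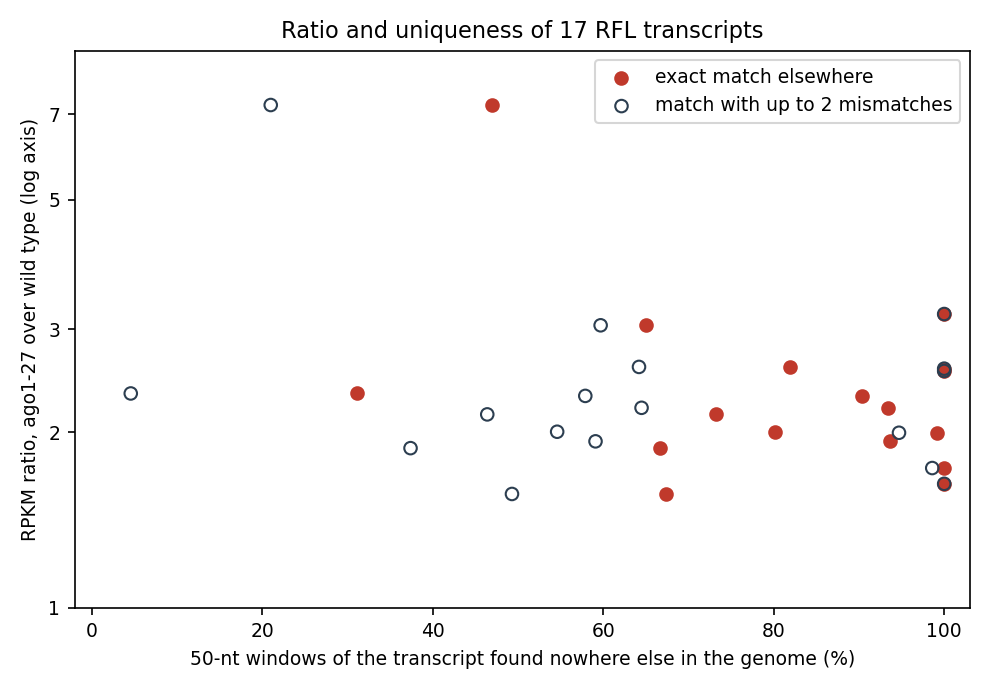
Ratio of RPKM, ago1-27 over wild type (log axis), against the share of a transcript's 50-nt windows found nowhere else in the genome, for 17 RFL genes. Red points count exact matches and open points allow up to 2 mismatches. Genes at or near 100% span ratios of 1.63 to 3.19, within the range of the less unique genes.

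Of 16 listed genes that make or load small RNAs or give their precursor transcripts, 6 were in the table, all higher in ago1-27. Of all rows, 69.4% were higher. AGO1 itself, the targeted gene, was at 175 RPKM in ago1-27, against 53.1 RPKM in wild type, a ratio of 3.29 (3.14 to 3.45). The allele leaves its transcript in place, so this does not check the genotype labels. TAS2, the precursor of the ta-siRNAs above, was at 6.64 RPKM in ago1-27, against 3.496 RPKM in wild type, a ratio of 1.90 (1.298 to 2.82). The related precursors TAS1B and TAS1C had ratios of 1.97 and 1.98. DCL1, the enzyme that cuts miRNAs from their hairpins, and its partner HYL1 had ratios of 1.52 and 1.51, close to the lowest that the table holds above 1. MIR161, MIR400, MIR173, RDR6, SGS3 and DCL4 were not in the table. Of 7 nuclear genes for mitochondrial transcription or RNA processing, 1 was in the table, the tRNA-processing enzyme TRZ3 with a ratio of 1.55, and 0 rows had an identifier of the mitochondrial genome.

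Some markers of seed, flower, pollen and leaf differed between the genotypes, as nearly every row of the table does by its selection. The 3 seed markers summed to 34.5 RPKM in ago1-27, against 2.61 RPKM in wild type, and all 3 were higher. Of 8 flower markers 2 were in the table, both higher in ago1-27 and both at low levels in tissue labelled as flower buds. AP1 was at 0.733 RPKM in ago1-27, against 0.0779 RPKM in wild type, and LFY at 1.17 RPKM in ago1-27, against 0.151 RPKM in wild type. The flower markers AP3, PI, AG, SEP1, SEP2 and SEP3 were not in the table, which holds almost no genes with ratios near 1. Of 3 pollen markers 2 were higher and 1 lower, summing to 3.99 RPKM in ago1-27, against 2.72 RPKM in wild type. Of 3 leaf markers 1 was in the table, RCA, at 3390 RPKM in ago1-27, against 5341 RPKM in wild type. The part of such tissue differences in the RFL ratios was not tested, and in whole tissue more RNA per cell and more cells of a type cannot be told apart.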

How the data were processed

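The authors made TruSeq libraries without strand and read 50 nt from one end, per the labels' protocols. Per the submitters' processing notes, TopHat2 2.0.11 and build TAIR10 were used. Not given in the sources used here were the counting tool, how multiply mapped reads were placed, how rows were selected and how replicates were combined. The authors deposited 1 RPKM value per genotype and their ratio, per the file headers. The quotient of the deposited RPKM values is the ratio used here. With 1 value per genotype, no test was run.

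The RFL genes and lists were chosen with earlier results of these data known. Other PPR genes are those whose RefSeq product or name says pentatricopeptide, which misses some named as tetratricopeptide proteins. All RFL genes in the table are named, in full where they have a miR161 or miR400 match, the highest or lowest ratio or the highest RPKM. The 3 genes with only a TAS2 match, and the genes outside the clade with a match, were added after their values were seen.

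Library totals between 8000000 and 20000000 were searched for those that turn low values into whole reads at annotated lengths. Values were split into 1 or 2 libraries at any length from 500 to 4000 nt, tolerating 0.6 of the last printed digit, and not into 3, which is not unique. Other read numbers use the longest TAIR10.1 transcript and mean totals of 11955563 (ago1-27) and 11845532 (wild type) reads. TAIR10.1 lengths may differ from the authors' annotation. Windows were aligned with bwa 0.7.19. The split, the match search and the window search were tested on simulated data or by direct search. Other tools were scipy 1.17.1, pandas 2.3.3, numpy 2.4.6, Biopython 1.88 and matplotlib 3.10.9, under Python 3.11.15. Alternatives were other pseudocounts, filters and thresholds, 2 rescalings, other match penalties and windows with mismatches.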

Additional observations from a re-analysis of the deposited data

How the results depend on the processing

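No paired analysis was possible because each genotype has 1 deposited value and no replicate columns, and for the same reason no replicate could be left out. RFL genes higher past the threshold, 0 of 16, became 4 with a pseudocount of 0.5 (16.0% of all rows), 9 with 0.1 (20.4%), 10 with none (21.6%) and 12 at a 1.5-fold threshold (57.8%, in a table itself selected near 1.5-fold). In 2 alternatives chosen after seeing the data, without a pseudocount and with a rescaling, the number was 1, AT1G63400 (median of ratios; 7.02% of all rows), and 3 (quantile normalization; 11.1%). With the pseudocount, these rescalings moved the rows higher and lower, 11.3% and 10.5%, to 3.32% and 29.7% (median of ratios) and to 5.98% and 18.3% (quantile normalization). The median log2 ratio of the RFL genes was 0.68, against 0.62 for all rows and 0.63 for other PPR genes. For the RFL genes it was 0.84, 1.05 and 1.12 with the smaller pseudocounts or none. After the median of ratios it was 0.26 (0.42 without a pseudocount), and after quantile normalization 0.43. Medians of all rows and of other PPR genes were not computed after the rescalings. With RPKM of at least 5 only 1 RFL gene was left, with a log2 ratio of 0.53. Other PPR genes past the threshold upwards, 0 of 48, became 4, 14 and 14 with the smaller pseudocounts or none, and 3 and 6 without one after the median of ratios and quantile normalization. Downwards, 0 became 4 after the median of ratios, also without a pseudocount, and 1 after quantile normalization (2 without a pseudocount). With a smaller pseudocount low genes pass more easily by construction, and a rescaling on selected rows shifts every ratio. AT1G63130 turned below 1 after the median of ratios, at -0.0416 (log2) with the pseudocount and -0.0503 without. Of 119 values of single RFL genes under the alternatives, 114 moved by less than their counting interval. The counts of matched and of unique genes stayed within 1.5 times under each alternative run. Depth limits the order of single genes, since each had about 4 to 119 wild-type reads at 1 average library. A value that rests on more libraries has more reads behind it.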
